A study of Mus musculus with 8 samples.

Results

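Macrophages of the pituitary neuro-intermediate lobe were followed through 10 of their genes, out of 48526 genes in the count table: Csf1r, Cx3cr1, C1qa, C1qb, C1qc, Tyrobp, Ptprc, Aif1, Cd68 and Mrc1. The genes were chosen by name, and each symbol matched 1 Ensembl identifier. The neuro-intermediate lobe joins the intermediate lobe, which is packed with melanotropes that secrete peptides cut from POMC, to the neural lobe, where hypothalamic axons end among pituicytes. Bulk RNA-seq libraries were made from pools of 5 lobes each, taken from male C57B6 mice aged 3 months. There were 4 groups of 2 libraries: WT lobes without a transgene, lobes of mice carrying the ACreb3l2 transgene, lobes of mice carrying the AXBP1 transgene, and lobes of mice carrying both (ACreb3l2/AXBP1). Each transgene encodes an acidic dominant negative protein that dimerizes with its target transcription factor, Creb3l2 or XBP1, and blocks its binding to DNA. Both were driven by a POMC promoter active in melanotropes, so the macrophages of these lobes are not the cells meant to carry them, and data were shown for 1 of the 2 mouse lines selected per transgene. The question put to the 10 genes was whether the macrophage and microglia transcripts of the lobe differed when the melanotropes were the cells manipulated.

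Macrophages in neural tissue include microglia, which lie within the tissue, and macrophages along its vessels and borders. Both depend on signals through the receptor CSF1R, clear debris by phagocytosis, and are a main source of the complement component C1q in brain. Microglia are usually recognized by high CX3CR1 and P2RY12, and border macrophages by the mannose receptor MRC1 (CD206) and CD163.

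Total counts per library ran from 28256086 to 37988912, and all 10 genes passed the filter on low counts, with 170 to 5498 raw counts each in a library. Together they held between 0.0369% and 0.055% of the counts of a library. Values below are normalized counts (counts scaled by library size with TMM factors to the mean depth) unless FPKM, the deposited level per kilobase, is named. The word called is kept for genes with an adjusted p under 0.05 in edgeR's quasi-likelihood test over all 15580 tested genes. Each transgene holds the coding sequence of its target from the leucine zipper on, so its reads could add to the counts of the targeted gene, but these counts were not higher in the libraries labelled with a single transgene and gave the labels no support: Creb3l2 was at 28682 and 28195 in WT and at 27212 and 26775 in the libraries labelled ACreb3l2, and Xbp1 was at 11877 and 13436 in WT and at 12448 and 13850 in those labelled AXBP1. In the libraries labelled with both, Creb3l2 was at 21205 and 14044 and was called lower than in WT (log2 change -0.69, edgeR adjusted p = 0.0428), while Xbp1 was at 17639 and 12854. Group names are therefore those of the labels throughout. The paper did measure both transgene transcripts by RT-qPCR in lobes of its transgenic mice. It selected lines in which they exceeded the endogenous mRNA. Nothing in the sources used here says that the 2 pools of a group were collected apart, so p-values measure the spread between these libraries only. In bulk RNA a smaller number of macrophages and less RNA per macrophage cannot be told apart.

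In the WT lobes the 3 chains of C1q stood highest per length (the plot of FPKM in the WT libraries). C1qa was at 74.8 and 73.2 FPKM, which placed its mean at percentile 94.2 of the tested genes. C1qb followed with 54.3 and 48.0 FPKM and C1qc with 48.6 and 47.9 FPKM, and these neighbours overlapped. Tyrobp (25.7 and 26.5 FPKM), Csf1r (25.0 and 20.4), Cx3cr1 (18.4 and 14.4), Aif1 (9.48 and 9.21) and Cd68 (7.78 and 5.32) came next, each above the one after it in both libraries. Mrc1 (2.46 and 1.68 FPKM) and Ptprc (2.03 and 2.11 FPKM) were lowest and overlapped, at percentile 23.5. When counts were instead divided by the annotated exon length the order was the same except that Cd68 stood above Aif1. Markers of both kinds of macrophage outside the 10 genes were present in WT. Of 12 microglia-enriched genes all were tested, with means that included 9.07 FPKM for Tmem119, 6.15 FPKM for P2ry12 and, as the lowest of the list, 0.632 FPKM for Slc2a5. Of 13 border and tissue macrophage genes 9 were tested, with means from 22.8 FPKM for Cbr2 and 5.78 FPKM for Stab1 down to 0.192 FPKM for Cd163, and the other 4, Lyve1 among them at 0.0922 FPKM, did not pass the filter.

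**Figure D1:**
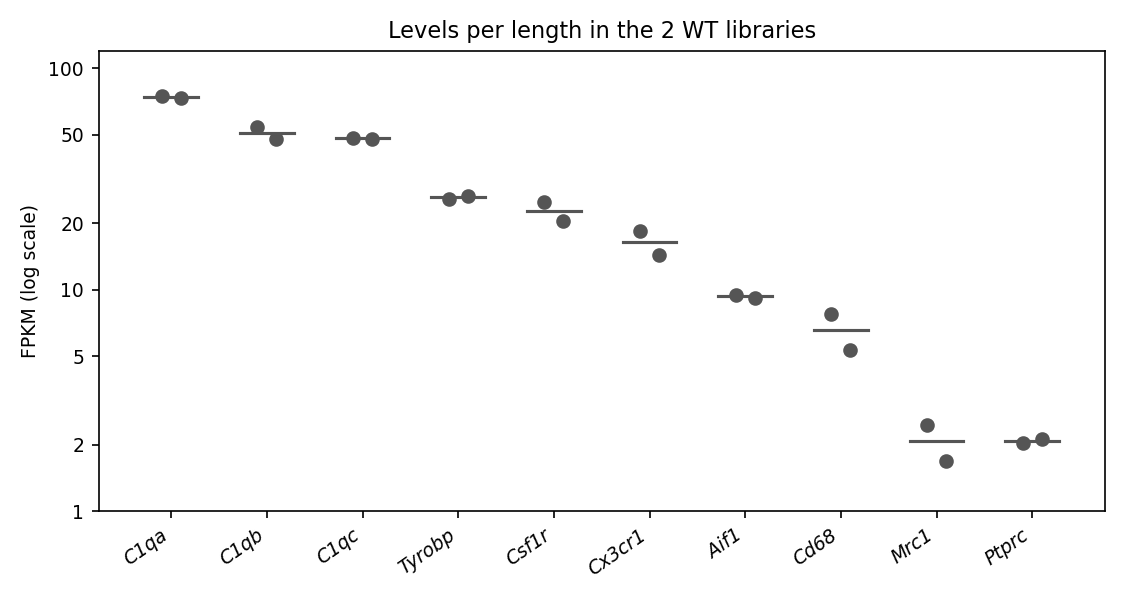
FPKM (log axis) of the 10 genes in WT replicate 1 (left point) and replicate 2 (right point), with a bar at their mean, ordered by the mean. C1qa stood highest at 74.0 FPKM, and Mrc1 and Ptprc lowest at 2.07 FPKM.

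None of the 10 genes was called in any comparison. Against WT, edgeR called 0 of 10 for ACreb3l2, 0 of 10 for AXBP1 and 0 of 10 with both transgenes, where it called 3.04%, 0% and 10.1% of all tested genes. At an unadjusted p under 0.05 the counts were 2, 1 and 1 of the 10, with 16.8%, 9.97% and 29.7% of all tested genes. DESeq2 and limma on log2(FPKM + 1) also called none, with 2, 1 and 1 genes under that unadjusted p for DESeq2 and 2, 0 and 0 for limma. For ACreb3l2, AXBP1 and ACreb3l2/AXBP1 in turn, the 10 genes had median log2 changes of 0.15, 0.00 and -0.02, beside 0.01, 0.00 and 0.01 over all tested genes. These comparisons share the WT libraries. The 95% intervals, which are not adjusted for the number of tests, reached from 0.298 to 0.566 on either side of the log2 change. A change smaller than its interval on either side could not be told from 0 with 2 libraries a group. Some changes beyond it, such as those of Mrc1, were not called either. A missed threshold does not show equal levels.

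**Figure D2:**
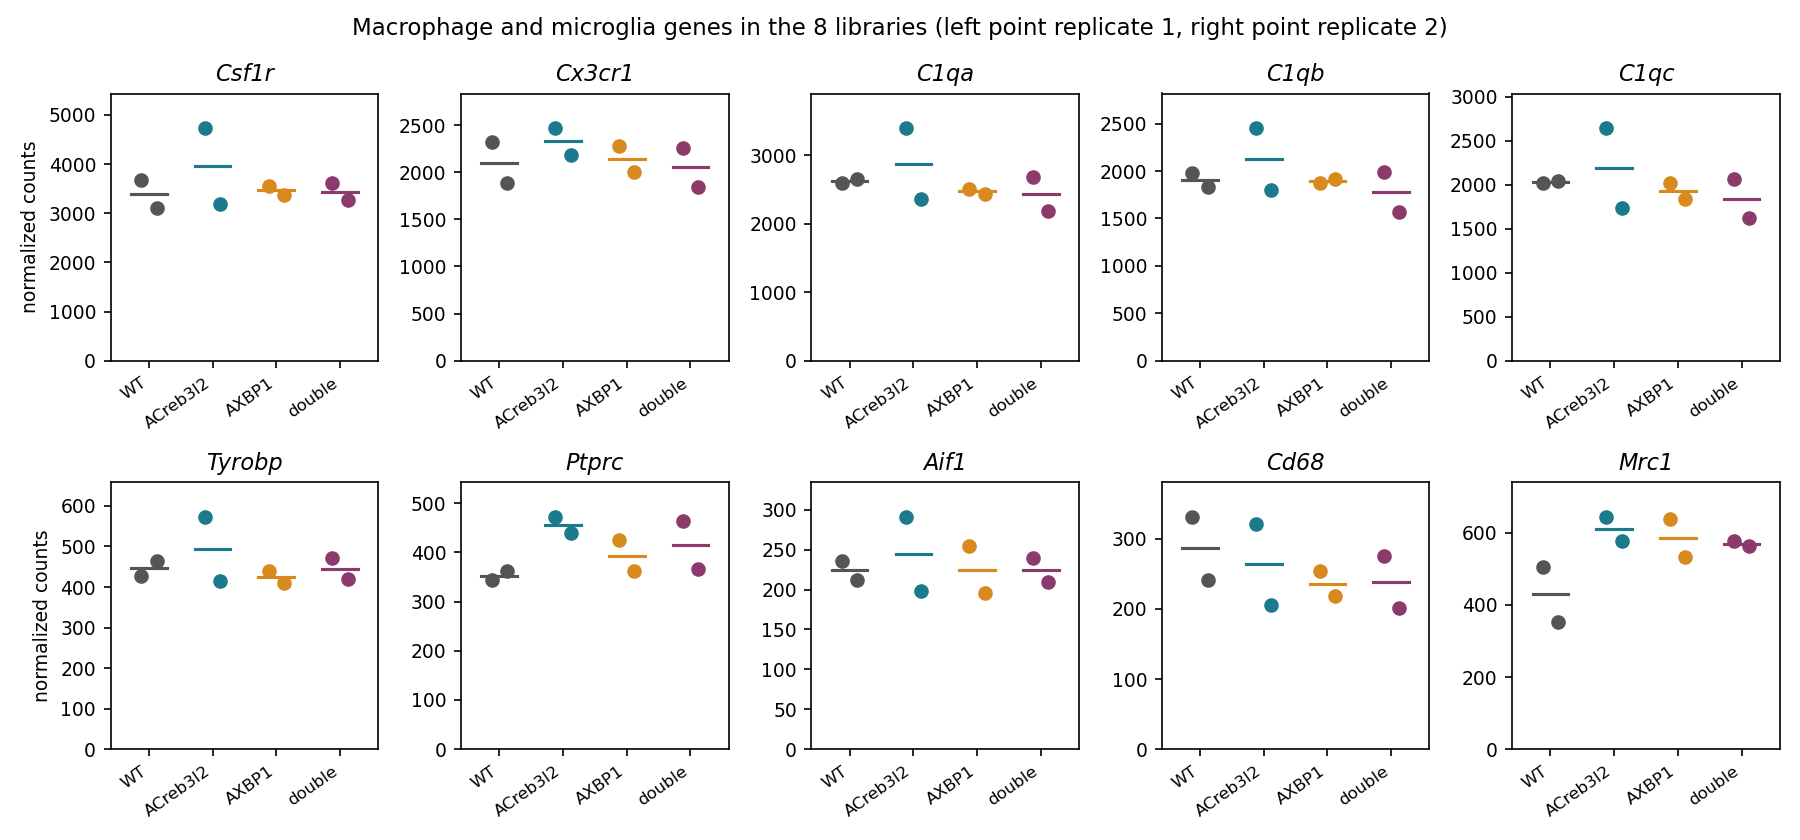
Normalized counts of each gene in the 8 libraries, with a bar at the mean of each group; "double" stands for ACreb3l2/AXBP1. ACreb3l2 replicate 1 is the highest library for 9 of the 10 genes, and Mrc1 alone has its 6 transgenic libraries above both WT libraries.

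Csf1r encodes the receptor for CSF1 and IL-34 that macrophages need to survive. It was at 3682 and 3109 normalized counts in WT, 4728 and 3186 for ACreb3l2, 3556 and 3375 for AXBP1 and 3614 and 3270 for the libraries with both transgenes. ACreb3l2 replicate 1 stood above all other libraries, and the 3 transgenic groups overlapped WT. The log2 change was 0.22 (SE 0.17, edgeR adjusted p = 0.566) for ACreb3l2, 0.03 for AXBP1 and 0.02 with both transgenes. Csf1r lies on mm10 chromosome 18, from 61100598 to 61132149 on the plus strand, and shares 873 exon bases with Hmgxb3 on the opposite strand. The sources do not state whether counting used strand, so reads in that stretch may belong to either gene.

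Cx3cr1 encodes the receptor for fractalkine (CX3CL1), which neurons display and microglia sense. Its counts were 2321 and 1884 in WT, 2466 and 2187 for ACreb3l2, 2281 and 2007 for AXBP1 and 2262 and 1845 for the libraries with both transgenes. Every transgenic group overlapped WT, and the highest library exceeded the lowest by 1.34-fold, the narrowest range of the 10 genes. The log2 changes were 0.15, 0.03 and -0.03 (SE 0.133 each), with edgeR adjusted p from 0.632 to 0.95. Its annotated locus, chromosome 9 from 119901616 to 120069879 on the minus strand, spans 9 other genes, but shares exon bases (78) with the antisense gene Gm33858 only. Among ligands of both receptors and transcription factors of the myeloid lineage, 10 genes of a chosen list were tested and 0 were called in any of the 3 comparisons with WT. At an unadjusted p under 0.05 the list had 1, 0 and 1 genes, and its median log2 change was 0.11, -0.03 and -0.10. Cx3cl1 was the most abundant of them, at a mean of 64.1 FPKM in WT and 68.6, 52.3 and 56.3 FPKM in the transgenic groups, and Csf1 was next at 9.01, 8.95, 8.28 and 7.11 FPKM. FPKM of AXBP1 are set low as a whole, since the median log2 change of all tested genes there was -0.13 on log2(FPKM + 1) and 0.00 on counts.

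C1q opens the classical complement pathway, and 1 C1q molecule is built from equal numbers of A, B and C chains. The genes of the chains lie side by side on mm10 chromosome 4, all on the minus strand: C1qb from 136880129 to 136886187, C1qc from 136889804 to 136893065 and C1qa from 136895917 to 136898803. None of these loci overlapped another annotated gene. Since the chains moved together (below), the sequence just before the annotated starts of C1qb and C1qc is shown. It was read from RefSeq's promoter table (GRCm38.p6, minus strand, 5′ to 3′), and capitals mark the letters GAGGAA or, on the other strand, TTCCTC, a core of the purine-rich sites bound by the myeloid factor PU.1. No window was held for C1qa.
C1qb, chr4:136886201-136886450: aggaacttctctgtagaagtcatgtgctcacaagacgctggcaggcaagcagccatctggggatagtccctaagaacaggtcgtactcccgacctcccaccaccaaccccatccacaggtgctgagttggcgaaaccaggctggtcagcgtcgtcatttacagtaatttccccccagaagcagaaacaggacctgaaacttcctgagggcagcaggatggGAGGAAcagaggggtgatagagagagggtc
C1qc, chr4:136893066-136893164: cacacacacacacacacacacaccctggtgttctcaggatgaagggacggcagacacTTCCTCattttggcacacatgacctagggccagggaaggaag

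Of the 10 genes, 7 had a window of 300 bases in that table (250 before to 50 after a start), and 6 of the 7 held the motif on either strand: Aif1, C1qb, C1qc, Cd68, Mrc1 and 1 of 2 windows of Ptprc. The window of Cx3cr1 did not. Counted by window, 6 of the 8 windows of these genes held it, beside 28.3% of all 32851 windows. A match of letters is no measure of binding.

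C1qa was at 2594 and 2649 normalized counts in WT, 3391 and 2353 for ACreb3l2, 2512 and 2432 for AXBP1 and 2675 and 2188 for the libraries with both transgenes. Both AXBP1 libraries lay below both WT libraries and the other groups overlapped WT. The share of all tested genes in which a single group separates from WT in this way was not counted. The separation is therefore given as a description only. C1qb was at 1983 and 1829 in WT, 2450 and 1800 for ACreb3l2, 1870 and 1919 for AXBP1 and 1988 and 1572 for the libraries with both transgenes. C1qc was at 2018 and 2049 in WT, 2643 and 1735 for ACreb3l2, 2025 and 1840 for AXBP1 and 2071 and 1619 for the libraries with both transgenes. For all 3 chains the highest library was ACreb3l2 replicate 1 and the lowest ACreb3l2/AXBP1 replicate 2. Log2 changes against WT were 0.13, 0.16 and 0.11 in ACreb3l2 for C1qa, C1qb and C1qc, -0.08, -0.01 and -0.07 for AXBP1, and -0.11, -0.10 and -0.14 with both transgenes, with edgeR adjusted p of 0.656 or more in each.

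The proportions between the chains varied less than their levels. The FPKM ratio of C1qa to C1qb lay between 1.34 and 1.52 over the 8 libraries, that of C1qa to C1qc between 1.47 and 1.63, and that of C1qb to C1qc between 1.00 and 1.17, while C1qc itself spanned 1.63-fold in normalized counts. Across the 8 libraries C1qa and C1qc had the highest correlation of log2 levels of any pair among the 10 genes (Pearson r = 0.985, a description in which both values of a point come from 1 library and share its depth). Of the other complement genes, 14 of 17 matched were tested and 0 were called in any comparison with WT, with 0, 0 and 1 at an unadjusted p under 0.05. Serping1, the inhibitor of the C1 proteases, was the most abundant of them at 24.3 FPKM in WT and 26.1, 21.9 and 24.3 FPKM in the transgenic groups.

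Tyrobp encodes DAP12, the adaptor that carries signals of TREM2 and other receptors to the kinase SYK. It was at 428 and 464 normalized counts in WT, 573 and 416 for ACreb3l2, 440 and 411 for AXBP1 and 471 and 419 for the libraries with both transgenes, so that every group overlapped WT. The log2 changes were 0.15, -0.07 and 0.00 (edgeR adjusted p = 0.665, 0.886 and 0.99). The gene lies on chromosome 7 from 30413760 to 30417585 (plus strand) and overlaps no other. Of its partner receptors and downstream kinases 9 of 12 genes were tested and 0 called, with 0, 0 and 2 at an unadjusted p under 0.05. Fcer1g, an adaptor of the same kind, was at 9.12 FPKM in WT and 9.30, 7.85 and 9.08 FPKM in the transgenic groups, and the SRC family kinase Lyn was at 4.91, 5.03, 4.27 and 5.10 FPKM. Trem2 itself was at 7.54, 8.67, 6.0 and 7.26 FPKM.

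Ptprc encodes CD45, the phosphatase on all nucleated blood cells. Its counts were 343 and 362 in WT, 472 and 440 for ACreb3l2, 424 and 361 for AXBP1 and 463 and 367 for the libraries with both transgenes. Both ACreb3l2 libraries and both ACreb3l2/AXBP1 libraries lay above both WT libraries, the latter narrowly, and AXBP1 overlapped WT. As for C1qa, the share of all tested genes that separate so was not counted. In ACreb3l2 the log2 change was 0.37 (95% interval 0.06 to 0.69), with an unadjusted p of 0.0256 and an edgeR adjusted p of 0.22. It was 0.16 in AXBP1 and 0.23 in ACreb3l2/AXBP1 (edgeR adjusted p = 0.696 and 0.297). Of 13 other leukocyte genes on a chosen list 0 were called and 0 reached an unadjusted p under 0.05 in each comparison with WT, and their median log2 changes were 0.08, -0.03 and 0.03. Lymphocytes carry CD45 too, and the 5 lymphocyte genes that were tested, of 14, had medians of 0.36, 0.01 and 0.58, with 5, 3 and 5 above WT, 0 called and 0 at an unadjusted p under 0.05. The value with both transgenes came mostly from 1 library, since the mean log2 CPM of these 5 genes relative to WT was 0.73 in its replicate 1 and 0.03 in its replicate 2. Their part in the Ptprc values was not tested. The most abundant of the 13 were Laptm5, at 13.5 FPKM in WT and 15.2, 12.5 and 13.5 FPKM in the transgenic groups, and Cd52 at 13.1, 14.3, 10.7 and 15.0 FPKM. Ptprc lies on chromosome 1 from 138062861 to 138175708 (minus strand).

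Aif1 encodes IBA1, the actin-bundling protein used to stain microglia. It was at 236 and 212 normalized counts in WT, 291 and 198 for ACreb3l2, 254 and 196 for AXBP1 and 240 and 209 for the libraries with both transgenes. All groups overlapped, and the log2 changes against WT were 0.13, 0.01 and 0.00, with edgeR adjusted p from 0.797 to 0.995. Cd68, which encodes a glycoprotein of macrophage lysosomes, was at 331 and 241 in WT, 321 and 206 for ACreb3l2, 254 and 218 for AXBP1 and 275 and 201 for the libraries with both transgenes. All groups overlapped, the WT libraries were 286 ± 63.8 (SD, n = 2), and Cd68 alone among the 10 genes was highest in a WT library. Its log2 change was below 0 in all 3 comparisons, at -0.11, -0.28 and -0.27, with edgeR adjusted p of 0.862, 0.696 and 0.492. Aif1 lies on chromosome 17 (35170991 to 35176068) and Cd68 on chromosome 11 (69664213 to 69666153), both on the minus strand with no overlapping gene. Lysosomal genes used by all cells had 0 of 15 called and median log2 changes of 0.00, -0.01 and -0.12, with 0, 0 and 3 at an unadjusted p under 0.05. Those typical of phagocytes had 0 of 13 called, medians of 0.27, 0.04 and 0.07, and 5, 0 and 2 genes under that p. Lgmn and Ctss were the most abundant of the latter, and the protease Ctss was at 73.1 FPKM in WT and 86.1, 59.9 and 75.9 FPKM in the transgenic groups.

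Mrc1 encodes the mannose receptor CD206, an endocytic receptor of border and tissue macrophages that resting microglia carry little of. It was at 505 and 353 normalized counts in WT, 644 and 577 for ACreb3l2, 637 and 533 for AXBP1 and 576 and 564 for the libraries with both transgenes. All 6 transgenic libraries lay above both WT libraries, which held for Mrc1 alone among the 10 genes and for 10.2% of all tested genes. The WT libraries differed from each other by more than those of any transgenic group (429 ± 107 for WT, 611 ± 47.6 for ACreb3l2, 585 ± 72.9 for AXBP1 and 570 ± 8.4 for ACreb3l2/AXBP1, SD, n = 2 each), and WT replicate 1 came close to the lowest of the transgenic libraries.

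The change of Mrc1 was 1.42-fold in ACreb3l2 (95% interval 1.10 to 1.83), 1.36-fold in AXBP1 (1.06 to 1.76) and 1.32-fold in ACreb3l2/AXBP1 (1.03 to 1.71). On the log2 scale this was 0.51, 0.45 and 0.41, with unadjusted p of 0.0115, 0.0223 and 0.0332 and edgeR adjusted p of 0.149, 0.484 and 0.135. It was therefore not called. The test for any difference among the 4 groups called 3.21% of all tested genes and 0 of the 10, and Mrc1 had the lowest adjusted p among them (unadjusted p = 0.0486, edgeR adjusted p = 0.257). Mrc1 passed the threshold under other settings: without the filter on low counts, in ACreb3l2 (edgeR adjusted p = 0.00755), in ACreb3l2/AXBP1 (0.0391) and in the test over the 4 groups (0.0167), and without WT replicate 1, in ACreb3l2 (log2 change 0.79) and ACreb3l2/AXBP1 (0.69), both at an edgeR adjusted p of 0.0256. The latter setting leaves 1 WT library, which is assumed to vary like the libraries of the other groups. Without WT replicate 2 the changes were 0.27, 0.21 and 0.17. Dropping the filter also raised the calls in ACreb3l2 from 473 to 1455 genes.

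**Figure D3:**
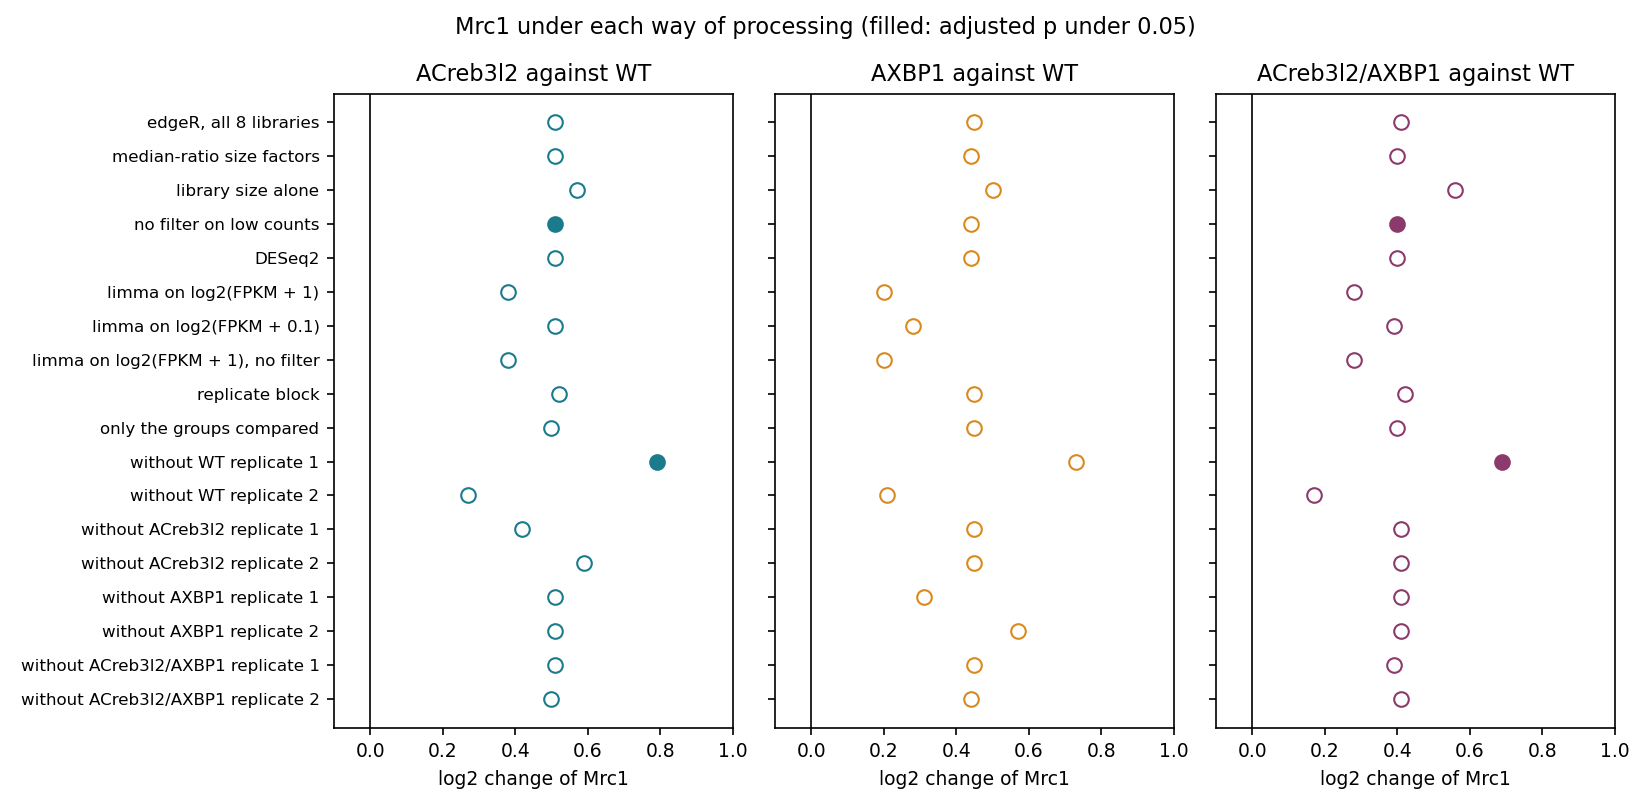
Log2 change of Mrc1 against WT in each transgenic group (x axis) under edgeR with all 8 libraries and under 17 other settings (y axis); filled points had an adjusted p under 0.05. The values stayed above 0 in every setting, from 0.17 to 0.79, and were highest without WT replicate 1 and lowest without WT replicate 2 in ACreb3l2 and ACreb3l2/AXBP1.

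On FPKM the separation was less complete. Mrc1 was at 2.46 and 1.68 FPKM in WT, 3.21 and 2.71 for ACreb3l2, 2.70 and 2.31 for AXBP1 and 2.58 and 2.81 for the libraries with both transgenes, so that AXBP1 replicate 2 fell between the WT libraries. Relative to Csf1r of the same library, the FPKM ratio of Mrc1 was 0.0982 and 0.0822 in WT, 0.0972 and 0.128 for ACreb3l2, 0.128 and 0.113 for AXBP1 and 0.114 and 0.124 for the libraries with both transgenes, and ACreb3l2 replicate 1 fell within the WT range on this measure. The gene (ENSMUSG00000026712) lies on mm10 chromosome 2 from 14229392 to 14332057 on the plus strand, and shares no exon base with another gene. Its window held the motif described for C1qb at 3 places, the most among the 7 members with a window. The stretch before the annotated start is shown with those places in capitals (RefSeq, GRCm38.p6, plus strand, 5′ to 3′).
Mrc1, chr2:14229164-14229391: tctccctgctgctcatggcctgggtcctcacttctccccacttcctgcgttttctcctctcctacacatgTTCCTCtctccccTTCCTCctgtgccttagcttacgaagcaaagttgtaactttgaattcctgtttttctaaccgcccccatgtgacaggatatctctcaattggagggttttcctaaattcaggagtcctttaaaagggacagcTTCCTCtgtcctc

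Genes that mark border and tissue macrophages beside Mrc1 were measured to see whether they moved with it. Of 13 on a chosen list 9 were tested and 0 were called against WT, with 1, 1 and 0 at an unadjusted p under 0.05. The median log2 changes were 0.21, -0.14 and 0.12, with 6, 4 and 6 of the 9 above WT. Cd163, at 21 to 67 raw counts a library, had means of 0.192 FPKM in WT and 0.373, 0.199 and 0.245 FPKM in the transgenic groups. Cbr2, the most abundant, was at 13.2 and 32.3 FPKM in WT and between 11.7 and 17.8 FPKM in the transgenic libraries, and each group overlapped WT. On counts its log2 changes were -0.46, -0.56 and -0.82 (edgeR adjusted p = 0.671, 0.67 and 0.285). Stab1, a scavenger receptor, had log2 changes of 0.21, 0.22 and 0.24 (edgeR adjusted p = 0.527, 0.607 and 0.312), although on FPKM its mean with both transgenes (5.46) was below that of WT (5.78). Lyve1, Clec10a, Timd4 and Cd209f did not pass the filter. Among markers of vessels and of the neural lobe, the 13 endothelial genes had median log2 changes of 0.01, 0.43 and 0.56 (0 called in each comparison), the first being that of all genes. Of these, 7, 13 and 13 were above WT, with 0, 1 and 4 at an unadjusted p under 0.05. The 13 pituicyte and astroglial genes had medians of 0.25, 0.16 and 0.23 (0, 0 and 1 called). Here 12, 10 and 13 were above WT, with 4, 1 and 5 under that p. Their part in the Mrc1 values was not tested. Of the 12 microglia-enriched genes all were tested and 0 called, with 2, 1 and 2 at an unadjusted p under 0.05 and medians of 0.24, 0.12 and 0.07. Among them Tmem119 was at 9.07 FPKM in WT and 8.35, 7.70 and 7.35 FPKM in the transgenic groups.

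**Figure D4:**
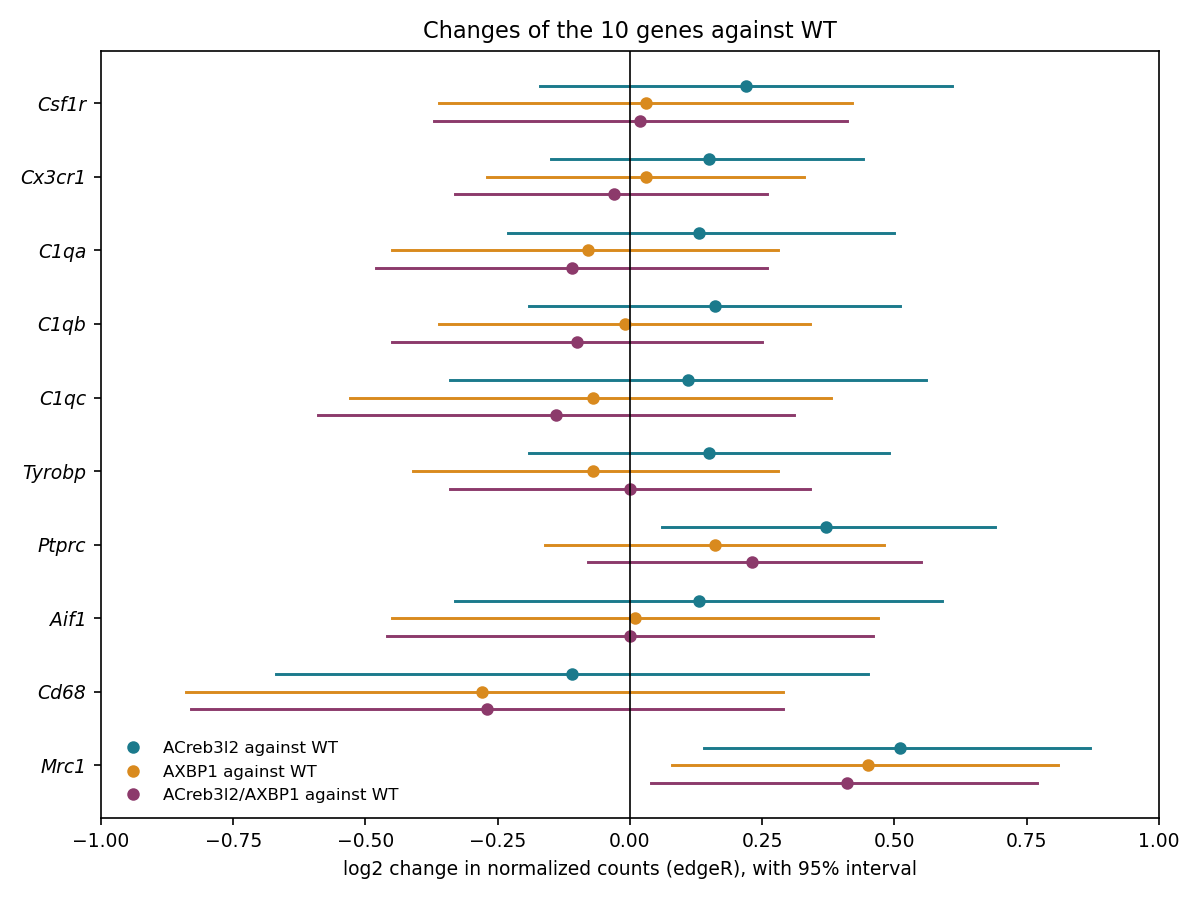
Log2 change of each gene against WT with its 95% interval from edgeR, for the 3 transgenic groups. Intervals that leave out 0 belong to Mrc1 in each comparison and to Ptprc in ACreb3l2, and no change passed the adjusted threshold.

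The transgenic groups were also compared with each other, which asked whether the 2 factors differ in their bearing on these genes. All 10 genes were higher in ACreb3l2 than in AXBP1, by 0.06 (Mrc1) to 0.22 (C1qa and Tyrobp) on the log2 scale, and 0 were called, beside 0.719% of all tested genes. All 10 were lower in ACreb3l2/AXBP1 than in ACreb3l2, by -0.10 (Mrc1) to -0.26 (C1qb), and 0 were called, beside 0% of all tested genes. Against AXBP1 the changes of ACreb3l2/AXBP1 lay between -0.09 and 0.08, with 0 called beside 0.623%. The interaction, which subtracts the log2 changes of both single groups from that of ACreb3l2/AXBP1, was below 0 for 9 of 10 genes, where 50.4% of all tested genes were above 0, and called none of them, nor any gene of the table (0%). Its largest value was that of Mrc1, at -0.55 (95% interval -1.06 to -0.03, unadjusted p = 0.0393, edgeR adjusted p = 1). At an unadjusted p under 0.05 these tests held 0, 0, 0 and 1 of the 10 genes. DESeq2 and limma called none of the 10 either, with 0, 0, 0 and 1 under that p for DESeq2 and 2, 0, 0 and 0 for limma. Both directions shared by all 10 genes rest on 1 library of ACreb3l2: without its replicate 1 the median log2 difference from AXBP1 went from 0.17 to -0.07, with 2 genes higher and 8 lower, and that between ACreb3l2/AXBP1 and ACreb3l2 went from -0.17 to 0.07, with 6 genes higher and 4 lower. The interaction rests on the same library, and without it the median over the 10 genes went from -0.19 to 0.11, with 6 genes above 0 and 3 below.

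That library was ACreb3l2 replicate 1. It was the highest of the 8 for 9 of the 10 genes, with Cd68 as the exception, beside 12.5% of all tested genes. Its counts exceeded those of ACreb3l2 replicate 2 by 1.07-fold (Ptprc) to 1.56-fold (Cd68), with a median of 1.41. In the other groups the median ratio of replicate 1 to replicate 2 was 1.10 in WT, 1.12 in AXBP1 and 1.22 in ACreb3l2/AXBP1. Replicate 1 was the higher library for 6 of the 10 genes in WT, 10 in ACreb3l2, 9 in AXBP1 and 10 with both transgenes, beside 49.4% to 50.6% of all tested genes. Without ACreb3l2 replicate 1, the median log2 change of the 10 genes in ACreb3l2 against WT went from 0.15 to -0.09, with 7 genes below 0. Csf1r, Aif1, C1qa, C1qb, C1qc and Tyrobp then turned from above to below WT, at -0.09, -0.18, -0.15, -0.08, -0.23 and -0.10, whereas Mrc1 (0.42) and Ptprc (0.32) stayed above.

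Several lists of other macrophage genes and of other cells also had their highest score in this library, but not all did. The score of a list, its mean log2 CPM relative to WT, was 0.38 for the 10 genes in ACreb3l2 replicate 1 and between -0.13 and 0.13 in the other 7 libraries. It was 0.47 for the phagocyte lysosome genes, of which 12 of 13 were highest there, against -0.07 to 0.13 elsewhere. The microglia-enriched genes scored 0.36 (7 of 12 highest there) and the leukocyte genes 0.28 (8 of 13). The complement genes scored 0.32 (8 of 14), with -0.12 to 0.09 elsewhere, and the ligands and myeloid transcription factors 0.28 (9 of 10), with -0.17 to 0.03 elsewhere. The erythroid genes scored 0.93 (6 of 6 highest there), with -0.48 to 0.48 elsewhere, and the pituicyte and astroglial genes 0.41 (7 of 13), with -0.10 to 0.35 elsewhere. The melanotrope genes, at -0.12, lay within the range of the other libraries (-0.60 to 0.17), and 0 of 12 were highest there. The anterior lobe genes scored 0.38 (3 of 9 highest there), with -0.56 to 0.12 elsewhere. The border and tissue macrophage genes scored 0.18 (3 of 9), with -0.18 to 0.14 elsewhere, and the macrophage activation genes 0.02 (2 of 9), with their highest score in WT replicate 1 (0.06). This library also had the most counts (37988912). The part of depth or of tissue makeup in its values was not tested.

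**Figure D5:**
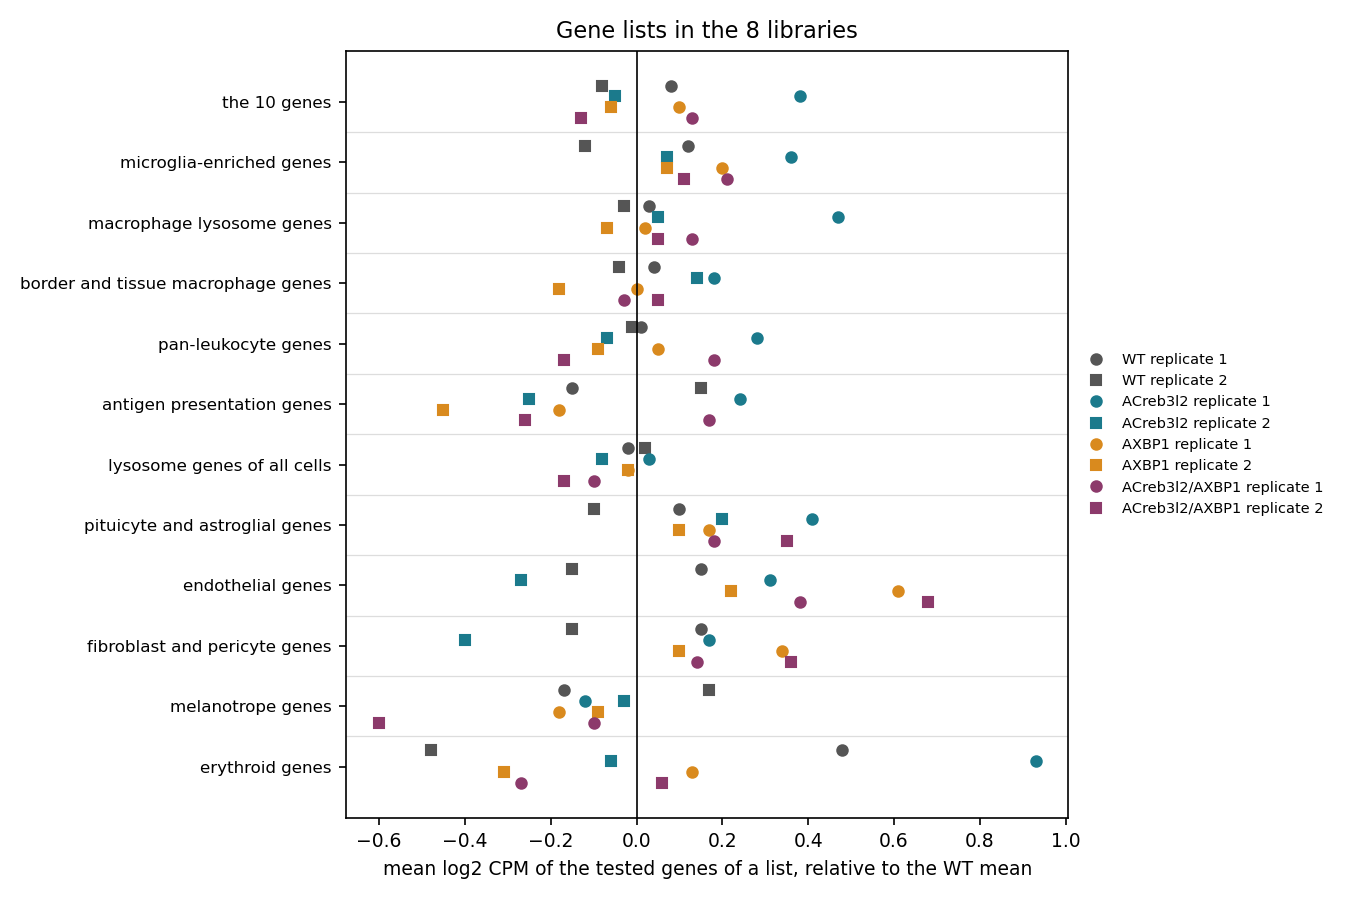
Scores of a selection of the gene lists (mean log2 CPM of the tested genes relative to the WT mean, x axis) in the 8 libraries. Circles are replicate 1 and squares replicate 2. ACreb3l2 replicate 1 lies apart for the 10 genes (0.38), and also for lists such as the macrophage lysosome genes (0.47) and the erythroid genes (0.93).

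Over the 8 libraries, the 10 genes mostly shared 1 pattern. The median Pearson r of a gene with the other 9 was 0.686 to 0.842 for Csf1r, Cx3cr1, Aif1, the C1q chains, Tyrobp and Cd68, but 0.51 for Ptprc and 0.281 for Mrc1, whose closest partners were each other (r = 0.619). These values describe 8 libraries, of which ACreb3l2 replicate 1 lay farthest from the mean of all (0.33 on the log2 scale, averaged over the 10 genes, against -0.18 to 0.08 for the others). Among the other tested genes, those whose log2 levels were most like the mean of the 10 were Hmha1 (r = 0.968), Cib1 (0.967), I830077J02Rik (0.947), Fcgr1 (0.947), Nckap1l (0.939), Pld4 (0.935), Actn2 (0.932), Nrxn3 (0.929), Trem2 (0.928) and Gimap3 (0.928). Fcgr1, a high-affinity receptor for IgG, and Trem2 are themselves macrophage genes.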

How the data were processed

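The 8 RNA-seq libraries were analysed. The authors trimmed reads with Trimmomatic, aligned them to mm10 with Tophat and counted them per gene with HTSeq-count, and the deposited counts are raw. The deposited FPKM were used for levels, and the loci of 51 genes listed more than once were summed. The annotation release and the strand setting are not given in the sources used here, and the labels name ribosomal depletion where the methods describe a poly(A) kit. Genes with a mean normalized count above 20 (15580 genes, 99.9% of counts) were tested in R 4.3.3 with edgeR 4.0.16 (TMM, quasi-likelihood test, 1 mean per group, 4 residual degrees of freedom, Benjamini-Hochberg threshold 0.05), whose biological coefficient of variation was 0.107. DESeq2 1.42.0 and limma 3.58.1 were alternatives, with other normalizations, filters and pseudocounts, a replicate block, and leaving out each library. The scripts were tested on simulated data. Members and lists were chosen with earlier results of these data known. Of each context list, the 2 genes with the highest mean FPKM and any called gene were named, except for some that are not reported here, and P2ry12, Slc2a5, Cd163, Lyve1, Trem2 and genes under the filter were named outside this rule. Overlaps came from GENCODE M21. Depth was 28256086 to 37988912 counts per library.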

Additional observations from a re-analysis of the deposited data

How the results depend on the processing

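The number of the 10 genes called stayed at 0 in 129 of 134 counts over 17 alternatives. Without the filter on low counts it was 1 in ACreb3l2 against WT, 1 in ACreb3l2/AXBP1 against WT and 1 in the test over the 4 groups. When single libraries were left out it lay between 0 and 1 for both of these groups against WT, the 1 arising without WT replicate 1, and the gene was Mrc1 each time. Of 510 changes of single genes under alternatives, 469 kept their direction and side of the threshold, 4 passed it (all Mrc1), and 37 changed sign, none of which exceeded 0.22 in size with all libraries. The cause was not tested. On FPKM with limma, AXBP1 against WT turned negative for Csf1r (-0.12, and -0.13 with a pseudocount of 0.1), Cx3cr1 (-0.12 and -0.13) and Aif1 (-0.17 and -0.19), the median of all genes being -0.13 and -0.16 there. With library size alone, where the median of all genes in ACreb3l2/AXBP1 was 0.17, that comparison turned positive for Cx3cr1 (0.12), C1qa (0.05), C1qb (0.05) and C1qc (0.02), as did C1qb in AXBP1 (0.05). Leaving out single libraries gave these ranges in ACreb3l2: Csf1r -0.09 to 0.48, Aif1 -0.18 to 0.38, C1qa -0.15 to 0.38, C1qb -0.08 to 0.37, C1qc -0.23 to 0.38, Tyrobp -0.10 to 0.37 and Cd68 -0.48 to 0.17. In AXBP1 they were -0.09 to 0.16 for Csf1r, -0.11 to 0.19 for Cx3cr1, -0.19 to 0.18 for Aif1 and -0.07 to 0.05 for C1qb. In ACreb3l2/AXBP1 they were -0.10 to 0.15 for Csf1r, -0.19 to 0.12 for Cx3cr1, -0.26 to 0.02 for C1qa, -0.28 to 0.05 for C1qb and -0.33 to 0.02 for C1qc.

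Over all genes the differences between replicates correlated by -0.197 to 0.0887 between groups, so the replicate numbers were not taken to pair the libraries, although most of the 10 genes were higher in replicate 1 in each group (6, 10, 9 and 10 of 10). With a replicate block 0 of the 10 genes were called in any comparison, and Mrc1 changed by 0.52, 0.45 and 0.42 in the 3 comparisons with WT. Over all genes, the calls against WT were 473, 0 and 1566 with edgeR, 321, 3 and 1113 with the replicate block, 1455, 628 and 3209 without the filter, and ranged from 153 to 618, 0 to 9 and 218 to 2084 when a library was left out. On FPKM with limma and no filter they fell to 118 in ACreb3l2 and 333 in ACreb3l2/AXBP1. Calls in the test over the 4 groups were 500, and 2881 without the filter. With 2 libraries a group, the 95% intervals of the 10 genes against WT extended 0.298 to 0.566 on the log2 scale to either side.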

Other observations

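Among 9 tested genes of macrophage activation, with median log2 changes of 0.04, 0.07 and 0.06 and 4, 2 and 3 genes at an unadjusted p under 0.05, 1 was called, Ccl2, a chemokine that draws monocytes. Ccl2 was at 4.04 and 2.03 FPKM in WT, 2.09 and 1.06 for ACreb3l2, 1.32 and 1.37 for AXBP1 and 1.21 and 0.734 for the libraries with both transgenes. Both AXBP1 and both ACreb3l2/AXBP1 libraries lay below both WT libraries, a separation whose share over all tested genes was not counted. Its log2 change was -1.64 (SE 0.416, edgeR adjusted p = 0.0379) in ACreb3l2/AXBP1, and it was not called in ACreb3l2 (-0.97, edgeR adjusted p = 0.256) or AXBP1 (-1.03, edgeR adjusted p = 0.492). That comparison called 10.1% of all tested genes. Its most abundant genes were Apoe, at a mean of 593 FPKM in WT and 780, 619 and 673 FPKM in the transgenic groups, and Spp1 at 49.1, 35.8, 42.6 and 50.2 FPKM.

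The 11 antigen presentation genes had median log2 changes of 0.03, -0.34 and -0.03 with 0 called, and 10 of the 11 were below WT in AXBP1, where 50.3% of all tested genes were above WT. The 9 anterior lobe genes were also mostly lower in AXBP1, with a median of -0.51, 7 of 9 below WT and 3 of 9 at an unadjusted p under 0.05, and their part in the antigen presentation values was not tested. Cd74, the invariant chain of MHC class II, was at 92.4 and 135 FPKM in WT, 161 and 94.1 for ACreb3l2, 85.4 and 78.1 for AXBP1 and 140 and 91.5 for the libraries with both transgenes. Its log2 changes on counts were 0.12, -0.33 and 0.06 (edgeR adjusted p = 0.9, 0.757 and 0.929). Of the monocyte and neutrophil genes 5 of 11 were tested (medians 0.11, -0.24 and 0.71, the last from 1 library, as the mean log2 CPM of the list relative to WT was -0.03 in ACreb3l2/AXBP1 replicate 1 and 1.32 in replicate 2) and of the erythroid genes 6 of 7 (medians 0.47, -0.19 and -0.23), and 0 were called in any comparison with WT, with 1, 0 and 1 and with 0, 0 and 0 at an unadjusted p under 0.05. The 13 fibroblast and pericyte genes had 0 called and medians of -0.05, 0.25 and 0.25, with 4, 10 and 11 genes above WT and 0, 2 and 0 at an unadjusted p under 0.05. The anterior lobe genes had 0 called and medians of 0.05 and -0.08 in ACreb3l2 and ACreb3l2/AXBP1. No gene of the whole table was called in AXBP1 by edgeR, where 9.97% had an unadjusted p under 0.05. Among 12 melanotrope genes, Tbx19 and Scg2 fell in ACreb3l2/AXBP1, by 0.88 and 0.57 on the log2 scale (edgeR adjusted p = 0.0245 and 0.0253). Among 13 pituicyte and astroglial genes, the water channel gene Aqp4 rose there by 0.51 (edgeR adjusted p = 0.0464), as the only one of the 13 called, beside the same 10.1% of all tested genes.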
